A study of Mus musculus with 19 samples.

Results

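The genes described here make the machinery of DNA replication and of mitosis, and they were followed in mouse hepatic stellate cells (HSCs) during the first hours and days of culture. The list holds 54 genes, matched by gene symbol among the 55487 genes of the count table. Its rule uses gene function and no measured value, but the list was chosen with earlier results of these data known. It was divided into 21 replication genes (helicase, polymerase, fork and nucleotide genes), 27 mitosis genes (cyclins, kinases, kinetochore, spindle and chromosome genes), 4 genes of the control of entry into S phase and 2 chromatin genes coupled to replication. HSCs were sorted on the ultraviolet fluorescence of their vitamin A stores from healthy, untreated male Balb/c mice aged 23 to 24 weeks. They were lysed without culture (0 h, 2 samples) or after 3, 6, 12, 18 or 96 h (3 samples each) or 24 h (2 samples) on collagen-coated plastic in DMEM with 10% fetal bovine serum. No group carried an engineered allele or received a drug. Plating on collagen with serum was shared by all cultured samples and absent at 0 h. The groups also differed in the M number of their sample titles, which is called the isolation number here. Numbers 2 and 3 were present at 0 h, 1 and 2 at 24 h and all 3 at the other times. Both isolation dates in the labels were present at every time.

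A cell that leaves quiescence passes through a fixed order of gene expression. D-type cyclins with their kinases inactivate the retinoblastoma proteins, E2F transcription factors then drive the genes that license and copy DNA, and the genes of chromosome segregation follow later, when the repression by the DREAM complex at their promoters is replaced by activation through MYBL2 and FOXM1. Quiescent HSCs of a healthy liver seldom divide, whereas HSCs that turn into myofibroblasts on plastic or in an injured liver proliferate.

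The libraries were made from the 3' ends of mRNA, held 2073171 to 7690892 counts each and are described in CPM, the count of a gene relative to the TMM-scaled total of its library. The limit of detection was set at 3 counts, or 0.386 to 1.51 CPM depending on the library. The HSC identity of the sorted cells was checked on 12 stellate cell markers, all of which were detected at 0 h, with a summed level of 30963 to 35886 CPM. This sum was 2107 to 3147 CPM at 24 and 96 h. The sum of 6 markers of activated HSCs went from 909 to 1586 CPM at 0 h to 5150 to 7259 CPM at 96 h. Among them, Col1a2 went the other way, with 566 and 696 CPM at 0 h and 382 to 516 CPM at 96 h. Every other marker of the 6 was higher at 96 h, and Col1a2 was named after its values were seen. The summed levels of markers of other liver cells were highest early (8 hepatocyte markers 3721 to 7842 CPM at 0 h and 27.8 to 89.2 CPM at 96 h, 8 Kupffer cell markers 349 to 380 and 23.3 to 46.2 CPM, 8 endothelial markers 606 to 841 and 6.93 to 121 CPM, 6 erythroid markers 162 to 353 CPM and 0). The endothelial sum was highest at 3 h, with 939 to 3683 CPM, and was 142 to 644 CPM at 12 h and 126 to 406 CPM at 24 h. Its marker Cdh5, named after its values were seen, went the other way early, with 28.1 and 40.7 CPM at 0 h and 69.8 to 270 CPM from 12 to 24 h. All 7 lymphocyte and all 4 neutrophil markers were at 0 at 96 h. In bulk samples, fewer cells of a type and less RNA per cell cannot be told apart, so that a level below is an average over all cells of a culture.

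The promoters of these genes carry short elements that are textbook landmarks of early and late phases of the programme, and 3 promoters are shown for orientation: Pcna and Top2a, as the replication and the mitosis gene with the highest mean level, and Mcm7, which was added after its values were seen because it kept its call under every alternative setting. The sequences are from RefSeq on GRCm38.p6, cover the 250 bases upstream of the start and read 5' to 3' in the direction of the gene. Capitals mark E2F elements (TTGGCGC and its variants TTCCCGC and TTGCCGC and TTCGCGC), the cell cycle genes homology region or CHR (TTTGAA or TTCGAA) and CCAAT boxes, on either strand. Pcna lies at chr2:132253181-132253430 (minus strand), Top2a at chr11:99024190-99024439 (minus strand), and Mcm7 has 2 starts on the minus strand, at chr5:138171884-138172133 and chr5:138171267-138171516.
Pcna: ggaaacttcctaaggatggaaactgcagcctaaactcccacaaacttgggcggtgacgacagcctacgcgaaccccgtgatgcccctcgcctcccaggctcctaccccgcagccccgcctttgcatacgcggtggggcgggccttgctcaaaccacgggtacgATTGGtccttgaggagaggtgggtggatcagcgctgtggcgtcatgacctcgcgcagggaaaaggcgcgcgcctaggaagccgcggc
Top2a: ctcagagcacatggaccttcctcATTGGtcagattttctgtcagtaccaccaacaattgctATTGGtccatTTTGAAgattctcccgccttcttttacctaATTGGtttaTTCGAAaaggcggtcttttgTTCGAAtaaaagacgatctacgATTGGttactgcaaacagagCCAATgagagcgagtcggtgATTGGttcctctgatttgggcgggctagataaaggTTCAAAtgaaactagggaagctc
Mcm7, upstream start: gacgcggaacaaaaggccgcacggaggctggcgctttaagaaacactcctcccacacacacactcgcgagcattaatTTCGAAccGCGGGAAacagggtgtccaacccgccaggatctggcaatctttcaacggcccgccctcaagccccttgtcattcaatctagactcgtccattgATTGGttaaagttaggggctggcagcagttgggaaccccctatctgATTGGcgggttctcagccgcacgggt
Mcm7, downstream start: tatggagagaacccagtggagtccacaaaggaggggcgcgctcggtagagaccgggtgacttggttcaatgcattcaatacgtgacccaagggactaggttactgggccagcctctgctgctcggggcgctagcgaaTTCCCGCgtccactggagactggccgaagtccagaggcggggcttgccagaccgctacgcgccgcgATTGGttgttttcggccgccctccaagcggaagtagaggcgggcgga
The Pcna stretch held a single CCAAT box, 87 to 83 bases before the start. The Top2a stretch held 6 CCAAT boxes and 4 CHR elements, the nearest of them 23 to 18 bases before the start. The upstream Mcm7 start had an E2F element, a CHR and 2 CCAAT boxes, and the downstream one an E2F element and a CCAAT box.

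Over the 44 of the 54 genes found in the promoter table, the elements were divided unequally between the classes. E2F elements were in the promoters of 9 of 17 replication genes (52.9%), among them Mcm5, Mcm6, Fen1, Rrm1 and Rrm2, and of 3 of 23 mitosis genes (13.04%), against 9.01% of the 27025 genes of the table. CHR elements were in 4 of 17 replication genes (23.5%) and 9 of 23 mitosis genes (39.1%), against 19.6% of all genes. With the 50 bases after the start included, they were in 23.5% of replication and 73.9% of mitosis genes, against 21.7% of all genes. E2F elements were then in 70.6% of replication and 13.04% of mitosis genes, against 10.9% of all genes. Within the 250 bases upstream, CCAAT boxes were in 64.7% of the replication and 78.3% of the mitosis genes, against 37.5% of all genes. None of the 2 matched genes of S phase entry held any of the 3 elements in this window. These shares describe letters in a fixed window and were not tested.

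The level of the replication genes in the freshly sorted cells was low and carried by few genes. Their summed level was 326 and 344 CPM at 0 h, and 9 and 10 of the 21 genes had any count. The mitosis genes summed to 57.9 and 143 CPM, with counts for 6 and 8 of 27 genes. The higher of the latter sums belonged to replicate 3, the smallest library, in which Mad2l1 (39.2 CPM), Cdk1 (36.2 CPM), Top2a (36.2 CPM) and the replication gene Gins2 (85.4 CPM) stood out. The other sample at 0 h had Top2a at 10.0 CPM and no count of Mad2l1, Cdk1 or Gins2. Of the 54 genes, 34 had counts in fewer than 10 of the 19 samples, and 51 could be tested in edgeR, 37 of them if the samples at 96 h had not counted towards the filter. Kif20a had no count in any sample.

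**Figure D1:**
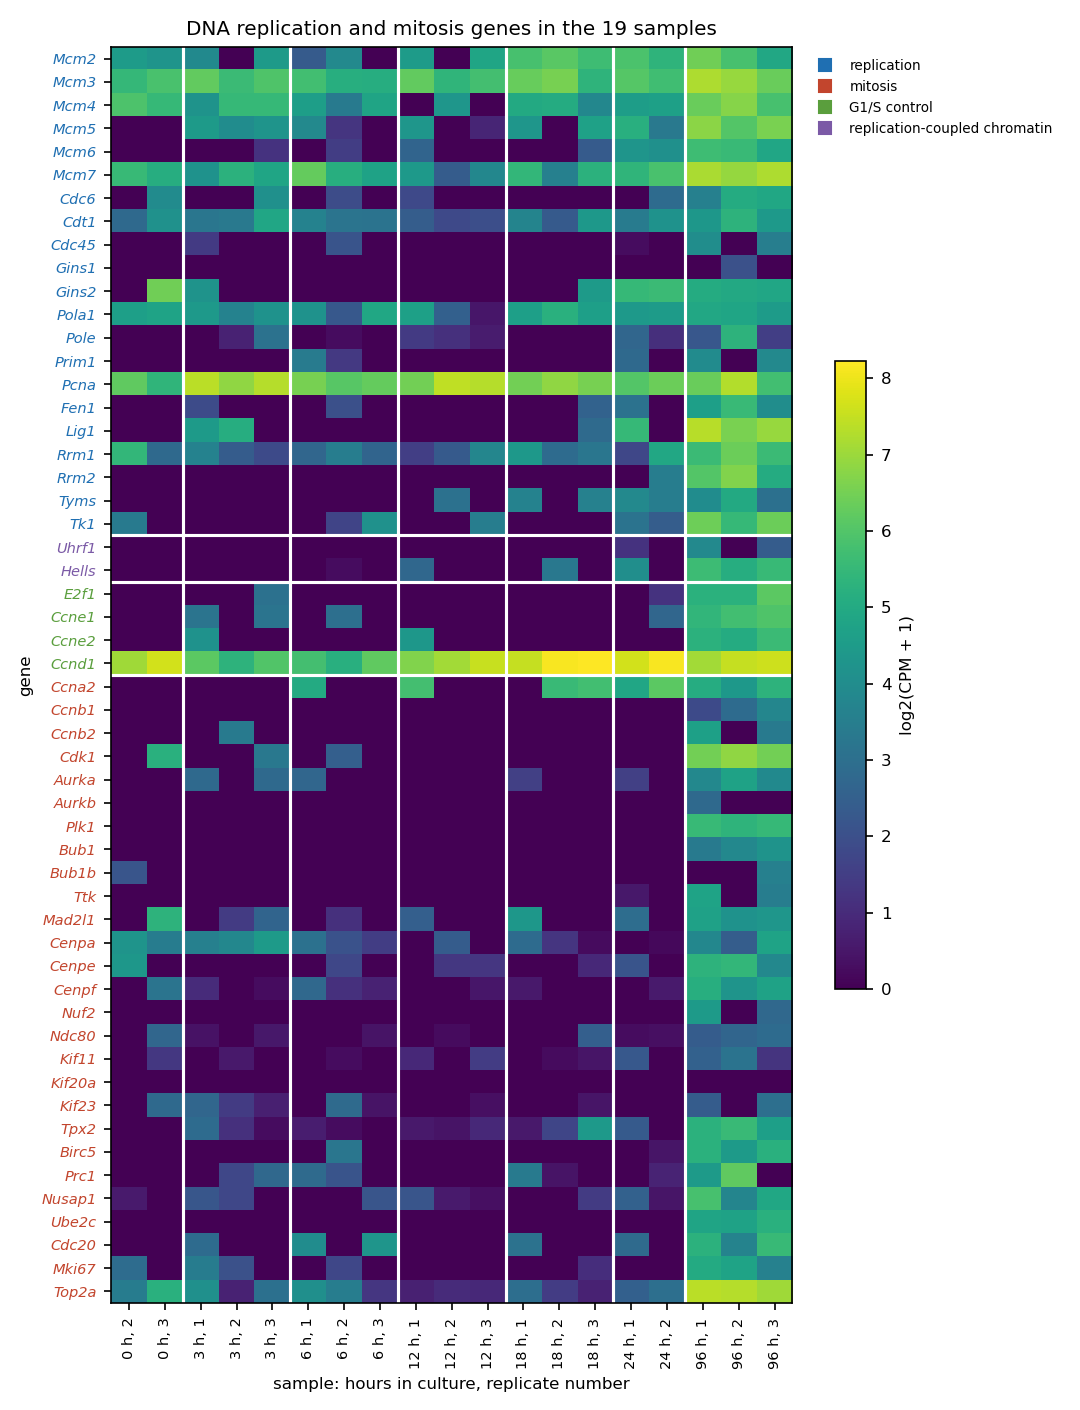
Level of the 54 genes (rows, symbol colours give the class) in the 19 samples (columns, hours in culture and replicate number) as log2(CPM + 1), with dark violet for no count. Most mitosis genes are dark up to 24 h and lit in the 3 columns at 96 h, whereas several replication genes, Pcna and Ccnd1 are lit in all columns.

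Ccnd1, which encodes cyclin D1, the cyclin that senses growth signals in early G1, fell within the first hours of culture and later returned. Fresh cells had 133 and 199.9 CPM, cultures of 3 h had 71.0, 39.3 and 62.9 CPM and those of 6 h had 53.1, 35.2 and 73.1 CPM, so that no sample at 3 or 6 h reached the lower sample at 0 h. In edgeR's quasi-likelihood test with Benjamini-Hochberg adjustment over 15138 genes, which was used for every call below with limits of an adjusted p of 0.1 and a fold of 2, its log2 fold change was -1.52 (SE 0.36, adjusted p = 0.0221) at 3 h and -1.63 (SE 0.36, adjusted p = 0.00759) at 6 h. Both calls were lost without replicate 3 at 0 h, and the former also without replicate 2 at 3 h (highest adjusted p over the alternatives 0.237 and 0.1003). From 6 to 12 h, Ccnd1 rose by 1.38 on the log2 scale (SE 0.33, adjusted p = 0.0569) to 102, 135 and 183 CPM, again without overlap between the times, although the adjusted p ranged from 0.00287 to 0.221 over the alternatives. The call was lost without replicate 2 or 3 at 12 h, without replicate 1 or 2 at 6 h and in the fit of only these 2 groups. Later cultures held more, with 180.1, 284 and 299 CPM after 18 h and 203 and 285 CPM after 24 h, and the last ones held 134, 179.6 and 195 CPM. Its log2 difference between 96 h and 0 h was 0.03 (SE 0.36, adjusted p = 1).

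The other genes of S phase entry were seen at 96 h. E2f1, a transcription factor of the replication genes, had 37.3, 36.8 and 69.7 CPM at 96 h and, before that, 7.41 CPM in 1 sample at 3 h and 1.29 CPM in 1 sample at 24 h. Ccne1, a cyclin that activates Cdk2 at the start of S phase, had 41.6, 52.0 and 61.1 CPM at 96 h, against at most 8.06 CPM in the 16 other samples. Both had no count at 12 h and were called higher at 96 h than at 12 h, at least 69.0-fold for E2f1 (adjusted p = 0.0568) and at least 74.2-fold for Ccne1 (adjusted p = 0.0583). Ccne2 had 38.4, 32.7 and 47.7 CPM at 96 h and counts in 2 earlier samples, with 17.3 CPM at 3 h and 19.5 CPM at 12 h. All 3 of these genes thus lay above every earlier sample at 96 h, while Ccnd1 did not.

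Pcna, the sliding clamp of the DNA polymerases, had counts in every sample and moved early. Fresh cells had 73.0 and 41.2 CPM and cultures of 3 h 166, 114 and 156 CPM, a log2 change of 1.34 (SE 0.42, adjusted p = 0.0988), and all 3 cultures lay above both fresh samples. At 6 h it was at 92.0, 67.4 and 76.2 CPM and was not called. It was called higher again at 12 h, with 88.7, 171 and 157 CPM (log2 change 1.28, SE 0.42, adjusted p = 0.0552). Afterwards it lay between 88.7 and 114 CPM (18 h), at 64.6 and 82.4 CPM (24 h) and between 52.6 and 154 CPM (96 h). Over the alternatives, the adjusted p ranged from 0.0369 to 0.543 at 3 h and from 0.0259 to 0.355 at 12 h, and both calls were lost without replicate 3 at 0 h. The call at 3 h was also lost without replicate 2 at 0 h and replicate 1 or 3 at 3 h, and that at 12 h without replicate 2 or 3 at 12 h. Without the filter both calls were lost too. Library size scaling lost that at 3 h, and the fit of only the 2 groups compared lost that at 12 h. The endothelial marker sum was higher at 3 h (939 to 3683 CPM) than at 0 h (606 to 841 CPM) as well, and its part in the values of Pcna was not tested.

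Between 3 and 24 h, few other genes of the list passed the test. At 3 h, 1 gene was called higher and 1 lower than at 0 h, among 51 tested, where 4.19% and 1.39% of all genes tested were called higher and lower. The counts were 0 and 1 at 6 h (6.98% and 4.35% of all genes, with 0 members higher at an unadjusted p below 0.05 and 2 called higher by DESeq2), 1 and 3 at 12 h (8.6% and 9.1%) and 1 and 1 at 18 h (7.64% and 8.21%). At 24 h, edgeR called none (5.65% and 3.86% of all genes), 8 members had an unadjusted p below 0.05 and DESeq2 called 2 higher and 1 lower. These comparisons share the 2 samples at 0 h. Between successive times edgeR called 0 members from 3 to 6 h (2.5% and 1.99% of all genes, 7 members at an unadjusted p below 0.05, 2 higher and 1 lower by DESeq2), only Ccnd1, which was higher, from 6 to 12 h (0.416% of all genes higher and 1.42% lower, 9 members at an unadjusted p below 0.05, 1 higher and 2 lower by DESeq2), 0 from 12 to 18 h (0.0727% and 0.152%, 8 at an unadjusted p below 0.05, 0 by DESeq2) and 0 from 18 to 24 h (0.0132% and 0.0264%, 4 at an unadjusted p below 0.05, 0 by DESeq2).

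The genes that were lower at 12 h than at 0 h included Top2a, which encodes the topoisomerase that untangles sister chromatids. Its level was 10.0 and 36.2 CPM at 0 h, 16.6, 0.719 and 7.19 CPM at 3 h, and 16.3, 10.1 and 1.46 CPM at 6 h. At 12 h it was 0.695, 1.02 and 0.934 CPM, close to the limit of detection and below both samples at 0 h. The change at 12 h was -4.65 on the log2 scale (SE 1.17, adjusted p = 0.0123), with an adjusted p of 0.11 without replicate 3 at 0 h. Top2a was called lower at 18 h as well (6.82, 1.75 and 0.745 CPM, log2 change -2.89, SE 1.09, adjusted p = 0.0992), but this call held in only 4 of 12 alternatives. It was lost without replicate 3 at 0 h and without replicate 2 or 3 at 18 h. Library size scaling, the isolation date, no filter, thinning and the fit of only these 2 groups also lost it. Cdk1 and Gins2 were called lower at 12 h by at least 26.01-fold and at least 61.4-fold (adjusted p = 0.0933 and 0.0923), but in each the counts at 0 h came from replicate 3 alone, so that the groups overlapped at 0. The call of Cdk1 was lost with the isolation as a block (adjusted p = 0.243), with the isolation date, in DESeq2 and without replicate 3 at 0 h or any of the samples at 12 h. The hepatocyte markers (3721 to 7842 CPM at 0 h and 114 to 204 CPM at 12 h), the Kupffer cell markers and the erythroid markers (162 to 353 CPM at 0 h and 0 in every sample at 12 h) also differed between these times, and their part in these changes was not tested.

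**Figure D2:**
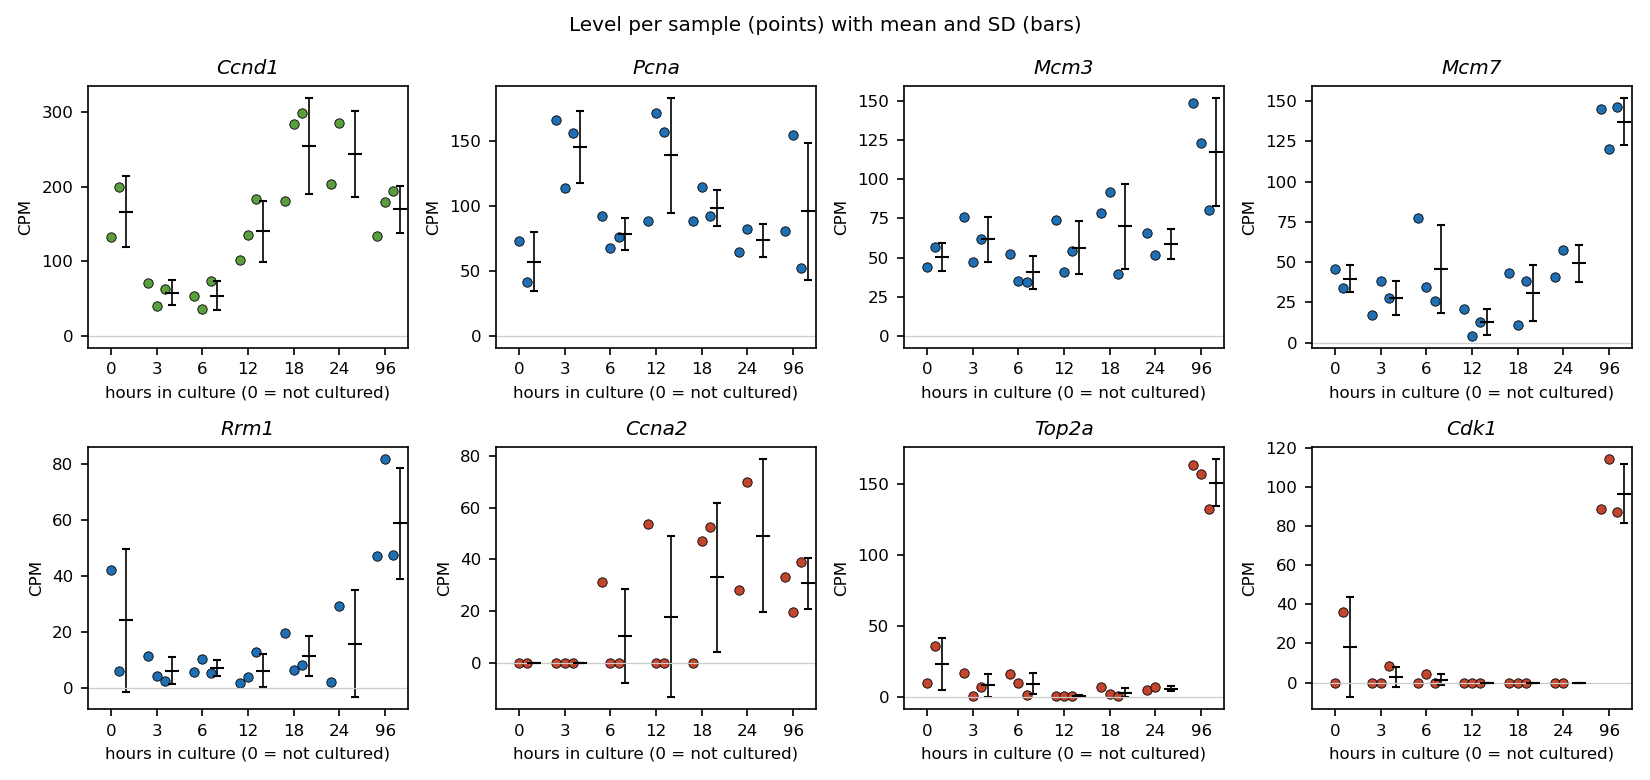
CPM of 8 genes per sample (points) against hours in culture, with mean and SD (bars, n = 2 at 0 and 24 h and n = 3 otherwise), in green for S phase entry, blue for replication and red for mitosis. Ccnd1 dips at 3 and 6 h, Pcna peaks at 3 and 12 h, and Mcm7, Top2a and Cdk1 have their 3 samples at 96 h above all others.

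Before 96 h, the replication and mitosis classes parted at 24 h. The mean log2 CPM of the 21 replication genes was 0.90 ± 0.32 (SD, n = 3) at 12 h, 1.70 ± 0.67 (n = 3) at 18 h and 3.06 ± 0.26 (n = 2) at 24 h, and both samples at 24 h (3.24 and 2.88) lay above all 14 earlier samples, the highest of which was 2.37 at 18 h. The 27 mitosis genes had -0.79 ± 0.17, -0.42 ± 0.24 and -0.29 ± 0.48 at these times and -0.11 ± 0.38 at 0 h, so that 24 h did not stand out. Over all genes tested, the mean was 2.892, 2.856 and 3.185 at 12, 18 and 24 h and 3.192 at 0 h. The difference between the classes was 1.59 ± 0.19 in fresh cells and 1.85 ± 0.25, 1.54 ± 0.15, 1.69 ± 0.15 and 2.12 ± 0.50 after 3, 6, 12 and 18 h. It widened to 3.35 ± 0.23 after 24 h and was 1.37 ± 0.58 after 96 h. These are descriptions without a test, on a scale (prior count 2) that gives a gene without counts a fixed low value.

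More replication genes had counts at 24 h than before, while few single genes stood apart. With every library thinned to 2073171 counts, 76.2% and 85.7% of the replication genes had a count at 24 h, against 33.3% to 66.7% in the 14 earlier samples, while the share of all genes tested was 73.1% to 79.4% at 24 h and 62.7% to 81.2% before. For the mitosis genes this share was 18.5% and 37.0% at 24 h and 7.41% to 37.0% before. Mcm6, a subunit of the replicative helicase, was the single gene with both samples at 24 h (18.7 and 16.3 CPM) above all 14 earlier samples (at most 5.33 CPM), where 1.96% of all genes tested met that condition. Gins2, a helicase cofactor, had 45.1 and 48.1 CPM at 24 h and counts in 3 earlier samples, and Tyms, which makes thymidylate, had 13.7 and 10.3 CPM. Before that, Tyms had 11.5 and 11.2 CPM in 2 samples at 18 h, 7.46 CPM in 1 sample at 12 h and no count in the other samples. In the comparison of 24 h with 0 h, 5 of 21 replication genes had both samples above both, close to the 26.1% of all genes tested that did so.

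**Figure D3:**
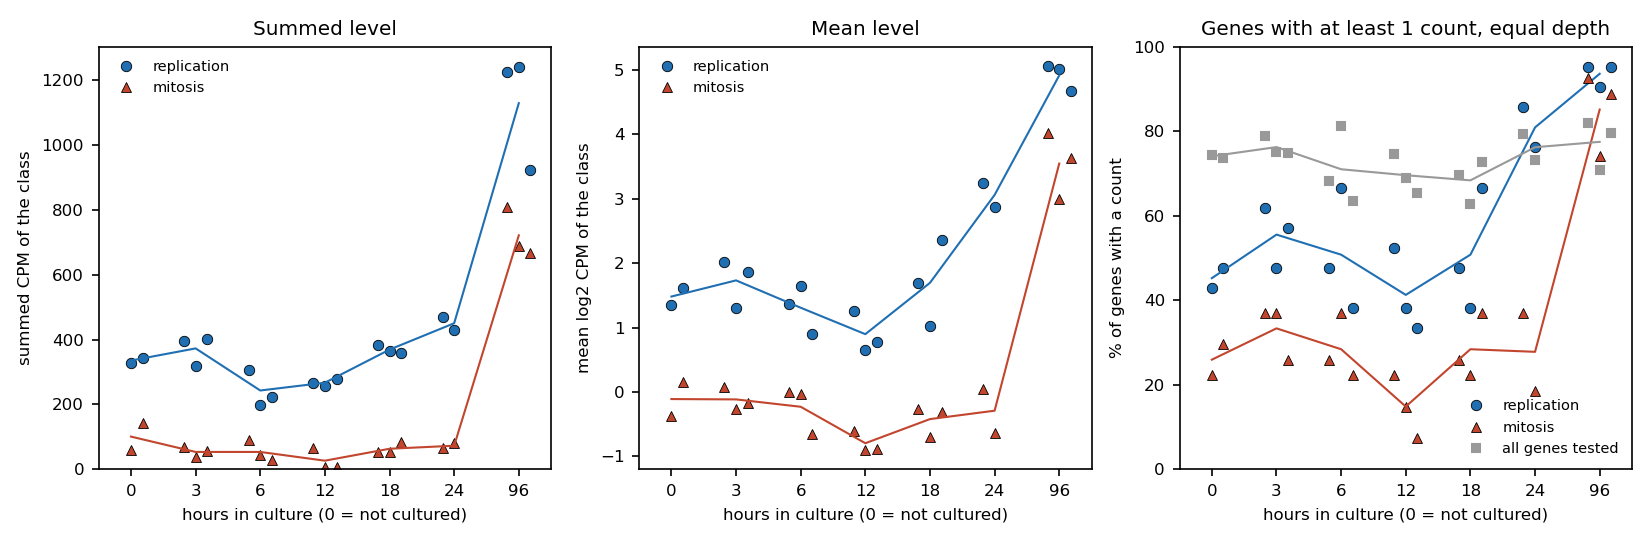
Summed CPM (left), mean log2 CPM (middle) and, after thinning to equal depth, the percentage of genes with a count (right) for the 21 replication and 27 mitosis genes in each sample (symbols) against hours in culture, with lines through the means and all genes tested in grey at the right. Replication genes are higher at 24 h than before in the middle and right panels, and both classes are highest at 96 h.

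Ccna2, which encodes cyclin A2 and serves both S phase and mitosis, did not follow the other mitosis genes. It had no count at 0 and 3 h, 31.4 CPM in 1 sample at 6 h and 53.7 CPM in 1 sample at 12 h. It then had 47.0 and 52.3 CPM in 2 samples at 18 h, 28.3 and 69.9 CPM at 24 h and 33.3, 19.8 and 39.1 CPM at 96 h. All 5 samples at 0 and 3 h were thus at 0 and all 5 at 24 and 96 h had counts, with samples of both kinds in between, but none of the 12 comparisons called it (adjusted p = 0.266 at 96 h against 0 h). It made up 84.1% of the summed level of the mitosis genes in replicate 1 at 12 h and 88.0% in replicate 2 at 24 h. The class difference without Ccna2 and Pcna was 1.33 to 1.53 up to 12 h. It was 2.02, 3.42 and 1.345 after 18, 24 and 96 h.

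At 96 h, both classes were at their highest level. The replication genes summed to 1225, 1241 and 923 CPM, against at most 470 CPM in the 16 other samples, and the mitosis genes to 809, 689.7 and 666 CPM, against at most 143 CPM. In 24 of the 54 genes every sample at 96 h lay above all 16 others, compared with 4.68% of the genes tested and 3.1% of the genes with any count. These were 8 of 21 replication genes, 12 of 27 mitosis genes, 3 of 4 genes of S phase entry and 1 of the 2 chromatin genes, and the count was 23 to 25 with library size scaling or thinning. This pattern was chosen after the values were seen. Among the 24, E2f1, Rrm2, Ccnb1, Plk1, Bub1, Birc5 and Ube2c passed the filter only through 96 h. The count therefore does not by itself measure the class.

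Of the culture times, 12 h had the lowest mean log2 CPM of both classes, so that folds against it start from the lowest level. The mean over all genes tested was low at 12 h as well, with 2.89 against 3.19 at 0 h and 3.28 at 96 h. Against 12 h, 20 of the 51 genes tested were called higher and none lower at 96 h, where 6.96% and 6.57% of all genes tested were called. They were 7 replication genes, 11 mitosis genes and 2 genes of S phase entry, and 31 genes, all of them higher, had an unadjusted p below 0.05. DESeq2 also called 20 higher and none lower. With the isolation as a block, the count was 14, with 6 in place of 11 mitosis genes, and without single samples it was between 6 and 10. The calls of Fen1, Rrm1, Plk1, Bub1, Tpx2, Prc1, Ube2c and Mki67 were lost with the block (adjusted p = 0.101 to 0.214). All but those of Mcm7, Top2a and Plk1 were lost in at least 1 of the fits that left out a sample. The median log2 fold, with genes at 0 counted at their bound, was 3.66 for the replication genes and 4.83 for the mitosis genes, against 0.17 for all genes tested. Of the 51 genes, 14 (2 replication, 10 mitosis, 1 S phase entry and 1 chromatin gene) passed the filter only through their counts at 96 h. This selected them towards higher values at 96 h, so that the counts and medians above do not by themselves measure the class. Among the genes described with values, these are E2f1, Rrm2, Plk1, Bub1, Birc5 and Ube2c, and their calls at 96 h are no more than a description.

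Among the helicase and licensing genes, Mcm7 rose from 20.8, 4.24 and 12.9 CPM at 12 h to 145, 120.3 and 146 CPM at 96 h. Its values were 33.6 and 45.6 CPM at 0 h and at most 77.1 CPM in any sample before 96 h. The log2 change against 12 h was 3.44 (SE 0.64, adjusted p = 0.0018), and it was called in all 13 alternatives. Mcm3, another subunit of the same ring, was present throughout, with 43.9 and 56.7 CPM at 0 h, 34.2 to 91.9 CPM from 3 to 24 h, and 149, 123 and 80.2 CPM at 96 h. It was called against 12 h (log2 change 1.06, SE 0.37, adjusted p = 0.0804) and against 0 h (1.22, SE 0.42, adjusted p = 0.0949), although its lowest sample at 96 h was below the highest at 18 h. Mcm5 had no count at 0 h, 0 to 35.2 CPM from 3 to 24 h and 110.4, 64.1 and 93.8 CPM at 96 h, at least 59.4-fold above 0 h (adjusted p = 0.0762). Cdt1, which loads the helicase onto origins, was at 4.40, 2.54 and 2.94 CPM at 12 h and 19.5, 38.7 and 20.2 CPM at 96 h (log2 change 2.98, SE 0.87, adjusted p = 0.0373), but reached 28.1 CPM in 1 sample at 3 h.

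Of the genes of the lagging strand and of nucleotide supply, Lig1, Fen1, Rrm2 and Rrm1 were called higher at 96 h than at 12 h. Lig1, which seals Okazaki fragments, had 163, 94.9 and 125 CPM at 96 h, no count at 12 h and at most 45.1 CPM in any other sample, and was called at least 183-fold higher than at 12 h (adjusted p = 0.0495). Fen1, the flap endonuclease that trims these fragments, had 24.1, 46.4 and 15.5 CPM at 96 h and at most 7.51 CPM before, at least 41.2-fold above 12 h (adjusted p = 0.0982). Rrm2, the regulated subunit of ribonucleotide reductase, was seen in 1 sample before 96 h, with 10.2 CPM at 24 h, and had 64.5, 100.5 and 32.7 CPM at 96 h. It was called at least 94.8-fold higher than at 12 h (adjusted p = 0.0412). Rrm1, the constant subunit of the same enzyme, had counts in all 19 samples and rose from 1.85, 4.07 and 12.8 CPM at 12 h to 47.3, 81.8 and 47.7 CPM at 96 h (log2 change 3.23, SE 1.07, adjusted p = 0.0691). Of the samples at 0 h, 1 had 42.4 CPM of Rrm1 and the other 6.03 CPM. Hells, a chromatin remodeller of replicating DNA, was not called in any comparison, with 48.8, 34.1 and 45.8 CPM at 96 h and at most 15.7 CPM before.

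Among the mitotic kinases, Plk1 had no count in any of the 16 samples before 96 h and 45.9, 40.0 and 44.8 CPM at 96 h. It drives centrosome maturation and spindle assembly, and was called at least 62.7-fold higher than at 12 h (adjusted p = 0.0231) and at least 28.9-fold higher than at 0 h (adjusted p = 0.065). Both calls were lost with the isolation block and in DESeq2. Cdk1, the kinase that starts mitosis, had 88.6, 114 and 87.1 CPM at 96 h and no count from 12 to 24 h, at least 139-fold above 12 h (adjusted p = 0.0575). It had counts in 3 of the 8 samples up to 6 h, the highest with 36.2 CPM at 0 h. Aurka, a spindle pole kinase, had 13.2, 25.8 and 13.98 CPM at 96 h and at most 6.10 CPM before, at least 25.4-fold above 12 h (adjusted p = 0.0992). Other genes without a count in the 16 earlier samples were Ccnb1, Bub1 and Ube2c, which had counts in all 3 samples at 96 h, and Nuf2, Aurkb and Gins1, which had counts in 1 or 2 of them.

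Of the kinetochore genes, Cenpf and Bub1 were called higher at 96 h than at 12 h. Cenpf, a large outer kinetochore protein, had 35.0, 18.1 and 25.8 CPM at 96 h and 0, 0 and 0.4003 CPM at 12 h (adjusted p = 0.0689), the latter being 3 counts in 1 sample. Bub1, a checkpoint kinase, had 9.46, 13.5 and 17.5 CPM at 96 h and was called at least 19.4-fold above 12 h (adjusted p = 0.07). Cenpa, the histone H3 variant of centromeres, ran differently, with 18.1 and 10.0 CPM at 0 h, 10.9, 12.9 and 21.6 CPM at 3 h, 1.83 to 7.42 CPM at 6 h, 0 to 6.34 CPM from 12 to 24 h and 12.9, 4.43 and 26.1 CPM at 96 h. Its levels at 0 h and 96 h overlapped, and no comparison called it (adjusted p = 0.12 at 24 h against 0 h).

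Of the spindle, cytokinesis and ubiquitin ligase genes, Tpx2, Birc5, Prc1 and Ube2c were called higher at 96 h than at 12 h. Tpx2, an activator of Aurora A on the spindle, had no count at 0 h and 37.9, 46.8 and 23.8 CPM at 96 h, at least 24.0-fold above 0 h (adjusted p = 0.0585), and its log2 change against 12 h was 5.89 (SE 2.03, adjusted p = 0.0815). It was also called higher at 18 h than at 0 h (0.487, 2.28 and 20.5 CPM, at least 5.14-fold, adjusted p = 0.0937), mostly through 1 sample. This call was lost with the isolation block, the isolation date, no filter, thinning and the fit of only these 2 groups. It was also lost without replicate 2 or 3 at 18 h and without either sample at 0 h. Birc5, the survivin subunit of the chromosomal passenger complex, had 37.3, 21.4 and 36.2 CPM at 96 h and at most 8.35 CPM before, at least 45.5-fold above 12 h (adjusted p = 0.07). Prc1, which bundles the microtubules of the central spindle, had 21.5 and 72.8 CPM in 2 samples at 96 h and none in the third, and was called higher than at 12 h (adjusted p = 0.0868) although the groups overlapped at 0. Ube2c, the ubiquitin-conjugating enzyme of the anaphase-promoting complex, had 26.7, 25.6 and 36.2 CPM at 96 h and was called at least 42.4-fold above 12 h (adjusted p = 0.0376) and at least 19.6-fold above 0 h (adjusted p = 0.0978). Cdc20, its activating partner, had 37.9, 11.7 and 45.5 CPM at 96 h and up to 18.5 CPM at 6 h, and was not called.

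Top2a and Mki67 are commonly used as labels of cycling cells. Top2a had 163, 157 and 132 CPM at 96 h, against 0.695 to 1.02 CPM at 12 h, and its log2 change of 7.37 (SE 1.26, adjusted p = 0.000901) was called in all 13 alternatives. Of the genes called against 12 h, only Top2a and Mcm7 kept their call in every alternative. Mki67, the Ki-67 antigen, had 31.8, 26.2 and 11.3 CPM at 96 h, no count at 12 h and up to 9.95 CPM at 3 h, and was called at least 33.2-fold above 12 h (adjusted p = 0.0705).

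Compared with 24 h, the last earlier time, a single call was made. Only Top2a was called higher at 96 h than at 24 h (4.72 and 7.07 CPM at 24 h, log2 change 4.67, SE 1.31, adjusted p = 0.0897), and no gene of the list lower, where 1.37% of all genes tested were called higher and 1.35% lower. This call was lost in every fit that left out a sample of either time (adjusted p = 0.165 to 0.579), with the isolation date (0.114) and with thinning (0.103). The fit of only these 2 groups called 13 members higher. At an unadjusted p below 0.05, 10 mitosis genes, 2 replication genes and 1 gene of S phase entry were higher and none lower, and DESeq2 called 4 members higher and 0 lower. The median log2 fold was 1.65 for the replication and 4.201 for the mitosis genes, against 0.02 for all genes tested. However, 11 of the folds of mitosis genes and 1 of a replication gene were bounds set by the limit of detection. The 10 mitosis genes that passed the filter only through 96 h were thereby selected towards higher values there. All 3 samples at 96 h lay above both at 24 h in 12 of 21 replication and 17 of 27 mitosis genes, where 15.9% of all genes tested did so. The difference between the classes was not tested.

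Against freshly sorted cells, the cultures of 96 h had 5 members called higher and none lower (5.83% and 5.03% of all genes tested). They were Mcm3, Mcm5, Plk1, Tpx2 and Ube2c. With the isolation as a block 2 were called, with the calls of Mcm3, Plk1 and Ube2c lost (adjusted p = 0.137 to 0.265). No more than 2 were called without single samples. DESeq2 called 12 higher and none lower, and 21 genes, all higher, had an unadjusted p below 0.05. In 31 of the 54 genes every sample at 96 h lay above both at 0 h, compared with 22.2% of the genes tested. The median log2 fold was 2.15 for the replication and 2.77 for the mitosis genes, against 0.096 for all genes tested. Of these folds, 9 of replication genes and 14 of mitosis genes were bounds set by the limit of detection. The 14 members that passed the filter only through 96 h were thereby selected towards higher values there. These counts and medians therefore do not by themselves measure the class.

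**Figure D4:**
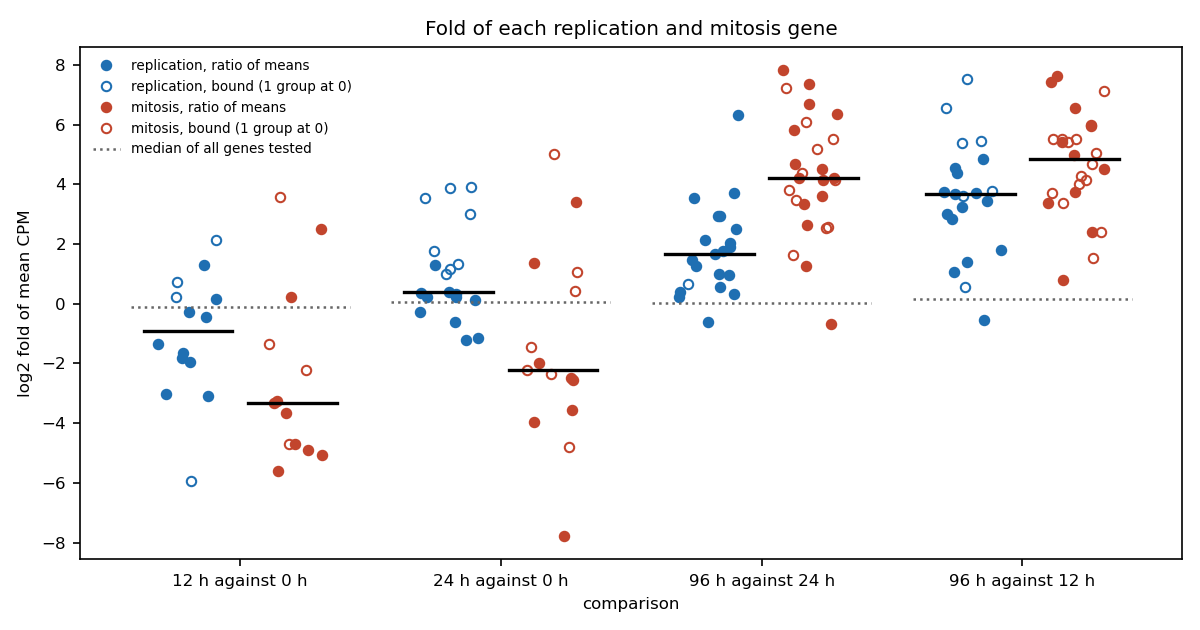
Log2 fold of the mean CPM of each replication (blue) and mitosis (red) gene in 4 comparisons, with open points where a group was at 0 and the fold is a bound, black lines at the class medians and dotted lines at the median of all genes tested. Genes at or below the limit of detection in both groups have no fold and are left out. Mitosis genes have a median of -2.23 at 24 h against 0 h, over the 15 of 27 with a fold, 7 of them bounds. The mean log2 CPM of all 27 was -0.11 at 0 h and -0.29 at 24 h. At 96 h against 24 h their median is 4.201. Replication genes have medians of 0.38 and 1.65 in these 2 comparisons.

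The wider pathway was followed in 120 other genes of replication and mitosis, all in the table and 108 of them tested. Against 12 h, 23 were called higher and 2 lower at 96 h, of which 14 higher and 1 lower were among 45 further mitosis genes and 3 higher among 16 polymerase and clamp genes, where 6.96% and 6.57% of all genes tested were called. In 24 of the 120, every sample at 96 h lay above all 16 others, against 4.68% of the genes tested. Knl1, Kif2c, Ect2, Hmmr, Melk and Pbk, named after their values were seen, are in both counts and had no count before 96 h. They passed the filter only through 96 h and could only come out higher, so that these counts do not by themselves measure the pathway. Rpa1, the large subunit of the single-strand binding protein RPA, had 170.0 and 174 CPM at 0 h and 896, 1015 and 1025 CPM at 96 h, a log2 change of 2.51 (SE 0.26, adjusted p = 9.89e-06). Dnmt1, the maintenance DNA methyltransferase, fell by 2.80 on the log2 scale from 0 to 12 h (SE 0.77, adjusted p = 0.0218) and rose by 3.29 (SE 0.74, adjusted p = 0.00796) from 12 to 96 h. Cdk6, a partner of the D-type cyclins, was at 93.8 and 102 CPM at 0 h and 336, 305 and 368 CPM at 96 h (log2 change 1.78, SE 0.28, adjusted p = 0.000548). E2f7, a repressor in the E2F family, had 55.6, 29.1 and 57.1 CPM at 96 h and counts in 1 earlier sample, and was called at least 68.0-fold above 12 h (adjusted p = 0.0595). It too passed the filter only through 96 h, so that this call is no more than a description.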

How the data were processed

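Raw counts per gene were deposited for 19 samples. According to the study's methods and its processing notes, the authors trimmed single-end reads of 3' mRNA libraries, mapped them with STAR to the mouse genome (mm10, GRCm38) and used StringTie; the counting tool and annotation release are not given in the sources used here. Each sample stands for 2 technical repeats that the counts do not separate. The study calls the repeats of a time independent, and the number of mice behind each is not given in the sources used here. Samples were grouped by the culture time in their labels.

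Ensembl identifiers were paired with symbols through a reference table of gene names (55141 of 55487 rows). Genes were filtered with filterByExpr at its defaults (15138 kept), scaled by TMM and tested in edgeR 4.0.16 (R 4.3.3, limma 3.58.1) with glmQLFit and glmQLFTest in 1 fit of all 19 samples on culture time, for 12 comparisons, with Benjamini-Hochberg adjustment over all genes tested in each. Calls needed an adjusted p below 0.1 and a fold above 2. The common biological coefficient of variation was 1.06. Log2 CPM used a prior count of 2. Folds against a group without counts are bounds against 3 counts per library (the largest such level in the group). With 2073171 to 7690892 counts per library, intervals of counting are wide for most members, and reads without molecular identifiers are not independent molecules. Within a culture time, 11 of 54 members (20.4%) and 17.7% of all genes tested had a sample at 0 beside one above 20 CPM.

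The isolation number, used for the isolation block, is the M number of the sample titles and column names. These names do not say what it counts, and numbers 1 and 3 share an isolation date. In the residuals, pairs that share a number correlated at 0.0143 on average (51 pairs) and other pairs at -0.00704 (103 pairs). The date of isolation 2 holds 1 sample per time, so that no test within it was possible and the date was used as a covariate.

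The members, their classes and the gene lists were chosen with earlier results of these data known, so no score over them was given a p. Genes with values were, per functional role, the member of highest mean CPM and up to 3 called members of smallest adjusted p; of the other pathway genes, up to 3 called per list. Genes outside this rule (Gins2, Mad2l1, Mcm6, Tyms, Ccne2, Ccnb1, Nuf2, Aurkb, Gins1 and Kif20a) were named after their values were seen. Promoters came from the RefSeq table (GRCm38.p6), and a gene with several starts counted once. Alternatives were library size scaling, DESeq2 1.42.0, no filter, the isolation block, the date, fits of 2 groups, another threshold, thinning and leaving out each sample. The fit was tested on simulated data. Python 3.11.15, numpy 2.4.6, pandas 2.3.3 and matplotlib 3.10.9 were used for promoters and plots.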

Additional observations from a re-analysis of the deposited data

How the results depend on the processing

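The numbers of members called are small outside 96 h and moved with most settings. Leaving out the fold limit and requiring an adjusted p below 0.05 gave 0 members higher at 3, 12, 18 and 96 h against 0 h, at 12 h against 6 h and at 96 h against 24 h, 7 at 96 h against 12 h, and 1 lower at 12 h and 0 at 18 h. DESeq2 called 2, 2, 3, 3, 2 and 12 members higher at 3, 6, 12, 18, 24 and 96 h against 0 h, 6, 3 and 1 lower at 12, 18 and 24 h, 2 higher and 1 lower at 6 h against 3 h, 2 lower at 12 h against 6 h and 4 higher at 96 h against 24 h. Without the filter there were 0 higher at 3, 12 and 18 h and 2 lower at 6 h. Fits of only the 2 groups compared gave 2, 0, 4 and 23 higher at 3, 12, 24 and 96 h against 0 h, 0 at 12 h against 6 h, 13 at 96 h against 24 h, and 1, 0 and 1 lower at 12, 18 and 24 h. With the isolation number as a replicate block, 2 members were higher at 96 h against 0 h and 0 at 18 h, and no other count of all members moved by over 1.5 times. With the isolation date, 3 were higher at 96 h and 0 at 18 h against 0 h, 0 lower at 18 h and 0 higher at 96 h against 24 h. Library size scaling gave 0 higher at 3 h and 0 lower at 18 h. Thinning gave 0 higher at 96 h against 24 h and 5, 1 and 2 lower at 12, 24 and 6 h. The count at 96 h against 12 h was 14 to 25 under the other settings. The causes of these shifts were not tested.

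Leaving out single samples moved the members higher against 0 h between 0 and 1 at 3, 12 and 18 h, and between 0 and 2 at 96 h (5 with all samples), with 0 at 6 and 24 h throughout. The lower counts moved between 0 and 1 at 3 and 6 h, between 0 and 3 at 12 h and between 0 and 2 at 18 h, with 0 at 24 and 96 h. For 96 h against 12 h they were 6 to 10 higher and 0 to 1 lower, for 96 h against 24 h 0 and 0, for 12 h against 6 h 0 to 1 and 0 to 1, for 18 h against 12 h 0 to 1 higher and 0 lower, and for 6 h against 3 h and 24 h against 18 h 0 and 0. Members with every sample at 96 h above all others numbered 25 to 31 without single samples at 96 h. Leaving out such a sample can only keep or raise this count, and samples of other times were not left out.

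The class difference in log2 CPM stayed positive or at 0 under every setting run. With a prior count of 0.5 it was 1.99, 2.28, 1.99, 2.22, 2.63 and 4.34 at 0, 3, 6, 12, 18 and 24 h; with class medians it was 0, 2.42, 0.98, 0.77, 1.47 and 4.89. Thinned libraries gave 1.35, 1.54, 1.24, 1.31 and 2.80 at 0, 3, 6, 12 and 24 h. Without Pcna and Ccna2, chosen after the data were seen, it was 1.33, 1.53, 1.33 and 1.46 at 0, 3, 6 and 12 h, and with the other classes counted as replication 1.30, 1.28 and 2.97 at 0, 6 and 24 h. Without single samples it was 1.46 to 1.73 (0 h), 1.75 to 1.99 (3 h), 1.47 to 1.62 (6 h), 1.61 to 1.76 (12 h), 1.84 to 2.31 (18 h), 3.19 to 3.51 (24 h) and 1.04 to 1.54 (96 h). The 300-base window raised the share of mitosis genes with a CHR to 73.9% and that of replication genes with an E2F element to 70.6%.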

Other observations

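Several of the other pathway genes had a course of their own. Zwint, a kinetochore scaffold, was at 205 and 198 CPM at 0 h and at 841, 705 and 780 CPM at 6 h (log2 change 1.94, SE 0.19, adjusted p = 8.3e-06 in edgeR) and was called lower at 96 h than at 12 h (log2 change -1.14, SE 0.16, adjusted p = 0.000203), when the mitosis genes called were higher. Orc2, a subunit of the origin recognition complex, had 5.52 and 14.1 CPM at 0 h and 20.5 to 70.5 CPM at 18 h (log2 change 2.26, SE 0.68, adjusted p = 0.0392). Smc4, a condensin subunit, fell by 1.70 on the log2 scale from 0 to 12 h (SE 0.44, adjusted p = 0.0158) and rose by 2.39 from 12 to 96 h (SE 0.42, adjusted p = 0.0011).

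Foxm1, a transcription factor of the mitosis genes, had 44.7, 19.8 and 24.8 CPM at 96 h and at most 18.5 CPM in the 16 other samples, and Ccnd2, a D-type cyclin, lay between 1019 and 1783 CPM in all 19 samples. Neither passed the test at 96 h. Both were named after their values were seen.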
